A study of Mus musculus with 4 samples.

Results

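The genes described here make the initiation and elongation factors of translation and the enzymes that charge tRNAs, and the question put to them was how FoxO1 stood on their chromatin in the normal mouse heart and in hypertrophy of different origin. A gene was taken if a region of the deposited table was assigned to a symbol of the form Eif plus a digit (Eif4ebp1 left out), Eef1 or Eef2, or an aminoacyl-tRNA synthetase symbol, and its value was taken from whichever of its regions had the strongest mean signal across the 3 FoxO1 libraries. This gave 85 genes of the 11718 symbols in the table, on 85 distinct regions of 16126. The samples were hearts of wild-type male C57BL/6 mice aged 12 weeks, all taken after 7 days. The Veh/Sham animals had daily subcutaneous vehicle and a sham operation, the Iso animals had subcutaneous isoproterenol (a beta-adrenergic agonist) at 3 mg/kg/day, and the TAC animals had transverse aortic constriction, which loads the left ventricle with pressure; the labels state no sham operation for Iso and no vehicle for TAC. FoxO1 chromatin was precipitated from 1 pool of 3 hearts per condition, so each condition is 1 library, there is no spread between replicates and no test of a condition. Every difference below is between 2 libraries of whole heart, in which a shift in cell types and a shift within cells cannot be told apart.

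FoxO1 is a forkhead transcription factor that Akt keeps out of the nucleus when insulin or growth factors signal. Translation starts when eIF2 brings the initiator tRNA to the small ribosomal subunit, eIF3 and eIF4 join it to the capped mRNA, and eIF5 and eIF5B release the factors and join the large subunit; eEF1 and eEF2 then carry the ribosome along the message with amino acids loaded by the tRNA synthetases. Protein synthesis rises as heart muscle cells enlarge, and mTOR, the eIF2 alpha kinases and the transcription factor ATF4 are known points of its control.

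Values are mean signals, the average coverage of a region in the authors' table. The Veh/Sham, Iso and TAC libraries had medians of 8.71, 11 and 14 over all regions, and a gene's values are given in that order. The sources used here do not say how the libraries were scaled to each other, so each log2 ratio (pseudocount 1) is also given relative to its median over all regions, which was 0.30 for Iso to Veh/Sham, 0.59 for TAC to Veh/Sham and 0.29 for TAC to Iso. A gene is called higher or lower where it stood at least 1.5-fold from that median, which is a rule of size. ChIP signal is not expression, so the tissue could not be checked by marker levels: 1 of 8 cardiomyocyte, 5 of 5 endothelial, 2 of 4 fibroblast, 1 of 5 leukocyte and 2 of 3 plasma cell markers had a region, with Igkc and Ighg1 of the plasma cell list at 134 and 121 in TAC against 3.94 and 0 in Veh/Sham. The part of such cells in the values below was not tested.

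Translation genes were covered widely and mostly at their own start sites. Of 106 RefSeq protein-coding symbols that fit the rule, 87 had a region (82.1%, 95% Wilson interval 73.7 to 88.2; 3 of them under an older symbol that the rule did not take), against 47.0% of 21896 protein-coding symbols. Symbols to which no region of the table was assigned included Eif2s1, the alpha subunit of eIF2 that the stress kinases phosphorylate, Eif2ak2 (PKR), Eef1a2, the eEF1A of adult muscle, Gars and Rars. The chosen region lay within 1000 bp of the gene's own start in 64 of the 85 genes (75.3%, 65.2 to 83.2), against 56.5% of all genes with a region. It overlapped a CpG island in 76 of 85 (89.4%, 81.1 to 94.3), against 76.5%. In 51 genes the region was also assigned to at least 1 neighbour, as with Eif3k and Map4k1 or Eef1a1 and Mto1, and the signal there cannot be given to one of them.

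The promoter sequences below, from the RefSeq table of build GRCm38.p6, belong to genes picked from those described here. Of these, Eif2s2, Aars, Tars and Eif4e passed 1.5-fold in no comparison. Each is read 5′ to 3′ on the gene's strand and ends at the base before the annotated start, with matches in capitals. Eif2s2, the third highest of the 85 regions, holds none of the 7 motifs searched in the bases shown; its NRF1 match lies 31 bases after the start, beyond them.
Eif2s2, chr2:154892907-154893056, minus strand: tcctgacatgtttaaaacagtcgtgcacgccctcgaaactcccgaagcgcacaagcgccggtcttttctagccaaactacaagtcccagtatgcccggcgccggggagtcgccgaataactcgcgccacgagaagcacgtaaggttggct
The next 4 genes had at least 1.5-fold more signal in Iso than Veh/Sham after recentring. Capitals mark CACGTG (the E-box) in Eif3k, Eif3f and Farsb, the NRF1 motif in Eif3k, and CCGGAAG (Ets, here on the other strand) in Eif3l. Lars2 and Iars2, also higher in Iso and not printed, hold no CACGTG, and a relation of motif to ratio was not tested.
Eif3k, chr7:28981889-28981988, minus strand: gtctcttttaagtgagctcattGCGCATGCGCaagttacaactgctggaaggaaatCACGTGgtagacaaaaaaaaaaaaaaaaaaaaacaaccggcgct
Eif3f, chr7:108934315-108934414, plus strand: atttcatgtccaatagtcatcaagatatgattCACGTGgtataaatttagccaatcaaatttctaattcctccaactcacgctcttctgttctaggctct
Eif3l, chr15:79075123-79075222, plus strand: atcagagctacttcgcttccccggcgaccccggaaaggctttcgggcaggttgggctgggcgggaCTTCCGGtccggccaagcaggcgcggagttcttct
Farsb, chr1:78488898-78488997, minus strand: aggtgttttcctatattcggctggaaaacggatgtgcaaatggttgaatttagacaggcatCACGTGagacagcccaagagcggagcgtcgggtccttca
Eif5a2 was lower in both hypertrophy libraries, and its promoter holds 2 E-boxes and 2 Ets matches.
Eif5a2, chr3:28781102-28781276, plus strand: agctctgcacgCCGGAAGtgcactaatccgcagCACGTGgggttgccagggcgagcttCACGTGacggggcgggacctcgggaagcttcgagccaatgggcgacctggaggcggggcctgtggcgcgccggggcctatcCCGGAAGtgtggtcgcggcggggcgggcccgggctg
Capitals in the alanyl and threonyl tRNA synthetase promoters mark TGATGNAA on the opposite strand, the CARE element through which ATF4 is known to act, and in Aars also an E-box.
Aars, chr8:111033692-111033841, plus strand: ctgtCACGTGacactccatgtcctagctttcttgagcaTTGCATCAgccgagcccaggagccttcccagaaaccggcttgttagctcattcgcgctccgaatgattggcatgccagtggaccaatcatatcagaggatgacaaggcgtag
Tars, chr15:11399659-11399758, minus strand: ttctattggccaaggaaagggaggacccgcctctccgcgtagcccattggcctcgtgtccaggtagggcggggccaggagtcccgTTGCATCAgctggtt
The cap-binding protein gene Eif4e holds 2 E-boxes and an NRF1 match, and the start of its scaffold partner Eif4g1 holds an E-box.
Eif4e, chr3:138527018-138527267, plus strand: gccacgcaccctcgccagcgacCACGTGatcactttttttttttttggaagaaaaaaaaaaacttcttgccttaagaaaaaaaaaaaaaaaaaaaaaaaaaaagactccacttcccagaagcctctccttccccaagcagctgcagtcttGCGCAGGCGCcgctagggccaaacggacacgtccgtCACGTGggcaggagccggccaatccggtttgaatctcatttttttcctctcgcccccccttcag
Eif4g1, chr16:20672627-20672726, plus strand: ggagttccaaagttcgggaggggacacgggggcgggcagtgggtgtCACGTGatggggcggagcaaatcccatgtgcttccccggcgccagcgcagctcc

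Motif letters were counted in the 300 bases from 250 before to 50 after the start, on both strands, in the 66 of 85 genes with an entry in the promoter table, and in 1 promoter for each of 8285 genes with a region. The gene's chosen region overlapped the promoter by at least 1 base in 50 of the 66. The overlap was partial in some, as in Eif3j1 (14 bases), so letters can lie outside the region there too. In the others all letters lie outside it. CACGTG was found in 17 of the 66 (25.8%, 95% Wilson interval 16.7 to 37.4), against 10.1% of genes with a region and 7.15% of all 32851 promoters in the table. Besides the genes above these included Eef2, Eef2k, Eif3a, Eif4a1, Eif5a and Iars. In Eef2k, Eif4a1, Eif4g1 and Eif4h of the 17 the chosen region did not overlap the promoter. In Eif1b it overlapped 50 of the 300 bases and left the E-box outside. TGATGNAA was found in 5 (Aars, Tars, Iars, Yars and Eif2s3x; 7.58%, 3.28 to 16.5), against 2.06% and 3.97%, and AAGATGGC, the YY1 motif, in 9 (13.6%, 7.34 to 23.9), against 4.95% and 2.75%. CCGGAAG was found in 19 (28.8%), against 19.0% and 8.86%, and the NRF1 motif (GCGCA and GCGC with any base between them) in 12 (18.2%), against 10.4% and 4.6%. The forkhead letters GTAAACA were found in 2, Iars2 and Vars2 (3.03%, 0.84 to 10.4), against 2.78% and 3.65%, and CAAAACA in 2, Lars2 and Yars (3.03%), against 4.02% and 6.28%. The chosen regions of Iars2 and Vars2 did not overlap these promoters. With the 250 bases before the start alone, AAGATGGC was found in 2 (3.03%, genes with a region 2.35%), TGATGNAA in 3 (4.55%, 1.56 to 12.5, against 1.79%), the NRF1 motif in 8 (12.1%, against 8.39%) and CACGTG in 14 (21.2%, 13.1 to 32.5, against 8.39%). No motif's letters contain those of another. GC content had a median of 60.0% in the 66 promoters and 61.3% in genes with a region. A match is a description of these letters and not a bound site.

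**Figure D1:**
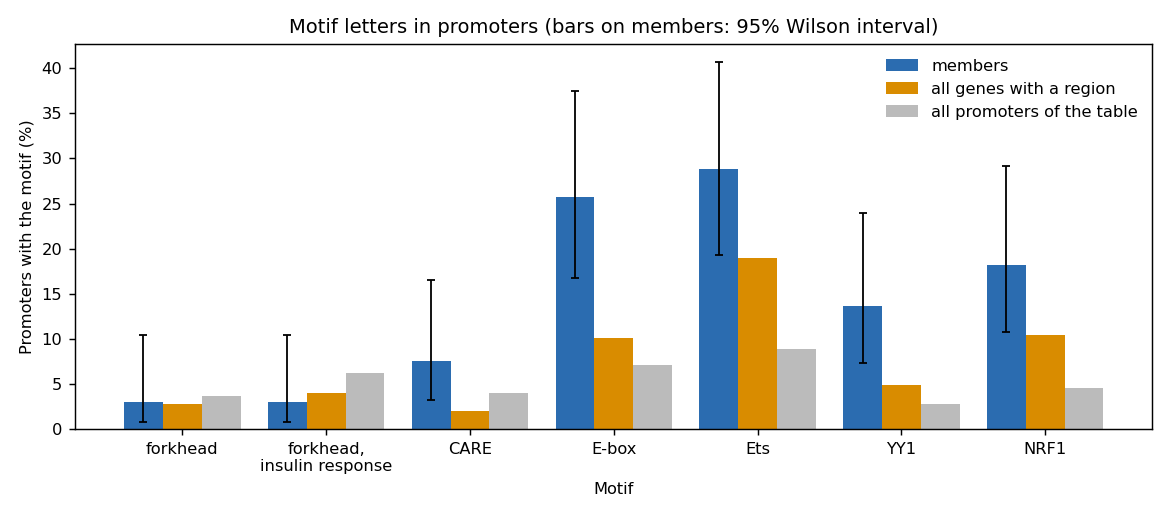
Share of promoters (%) that hold each motif on either strand within 250 bases before to 50 after the start, for the 66 translation genes with an entry, 8285 genes with a region and all 32851 promoters; error bars on the translation genes are 95% Wilson intervals. The E-box interval (16.7 to 37.4) lies above the 10.1% of genes with a region, and the GTAAACA share (3.03%) stands near its 2.78%.

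As a group the 85 genes stood where other genes stood. Their median mean signals were 11.3, 14.2 and 17.6, against 10.8, 13.3 and 16.7 over all genes. TAC was the highest of the 3 libraries in 60 genes (70.6%; 66.8% of all genes), Iso in 18 and Veh/Sham in 7. The authors called the region in Veh/Sham for 61 of 85 genes (71.8%, all genes 66.4%), in Iso for 48 (56.5%, all genes 50.9%) and in TAC for 56 (65.9%, all genes 61.7%). All 3 libraries had the call in 37 genes (43.5%, all genes 38.2%). None had it in 9 genes (10.6%, all genes 17.3%), namely Eef1d, Eif2b3, Eif2b5, Eif4enif1, Iars2, Lars2, Nars, Nars2 and Tars2.

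**Figure D2:**
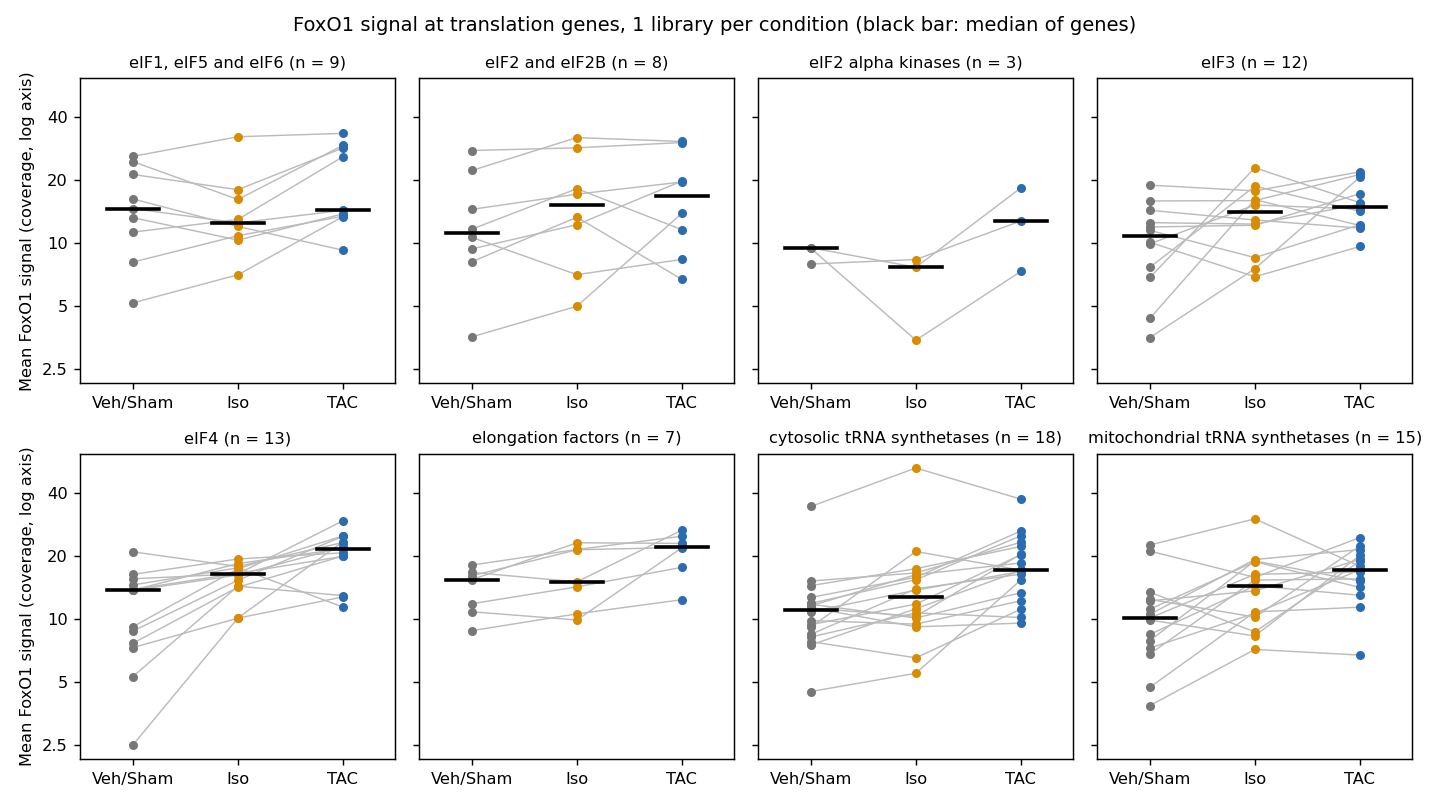
Mean FoxO1 signal (coverage, log axis) of each gene in the Veh/Sham, Iso and TAC libraries by role; grey lines join the values of 1 gene and black bars are medians over genes, not over replicates. Lars is the highest point in every library (34.3, 52.4 and 37.2), and the medians of the eIF4 genes run from 13.7 through 16.4 to 21.6.

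After recentring, the 85 genes had a median log2 ratio of -0.04 for Iso to Veh/Sham (95% order-statistic interval over genes -0.11 to 0.09; all genes -0.04), 0.00 for TAC to Veh/Sham (-0.14 to 0.09; all genes -0.05) and 0.00 for TAC to Iso (-0.09 to 0.17; all genes -0.01). For Iso to Veh/Sham, 10 genes were higher (11.8%, all genes 12.3%) and 9 lower (10.6%, all genes 13.2%). For TAC to Veh/Sham, 9 were higher (10.6%, all genes 12.6%) and 11 lower (12.9%, all genes 14.7%). For TAC to Iso, 12 were higher (14.1%, all genes 12.3%) and 11 lower (12.9%, all genes 13.5%). All of these shares are near those of all genes. The comparisons share libraries, so their values are set side by side and not related to each other. Low reference signal went with higher ratios: all 10 genes higher in Iso and all 9 higher in TAC read below the 10.8 median of genes in Veh/Sham, as did 94.9% and 98.2% of all genes in those classes. Of the 10 and 9 genes, 1 and 0 were called by the authors in Veh/Sham. The same share was not counted over all genes in those classes, so it is not read as a trait of these genes.

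**Figure D3:**
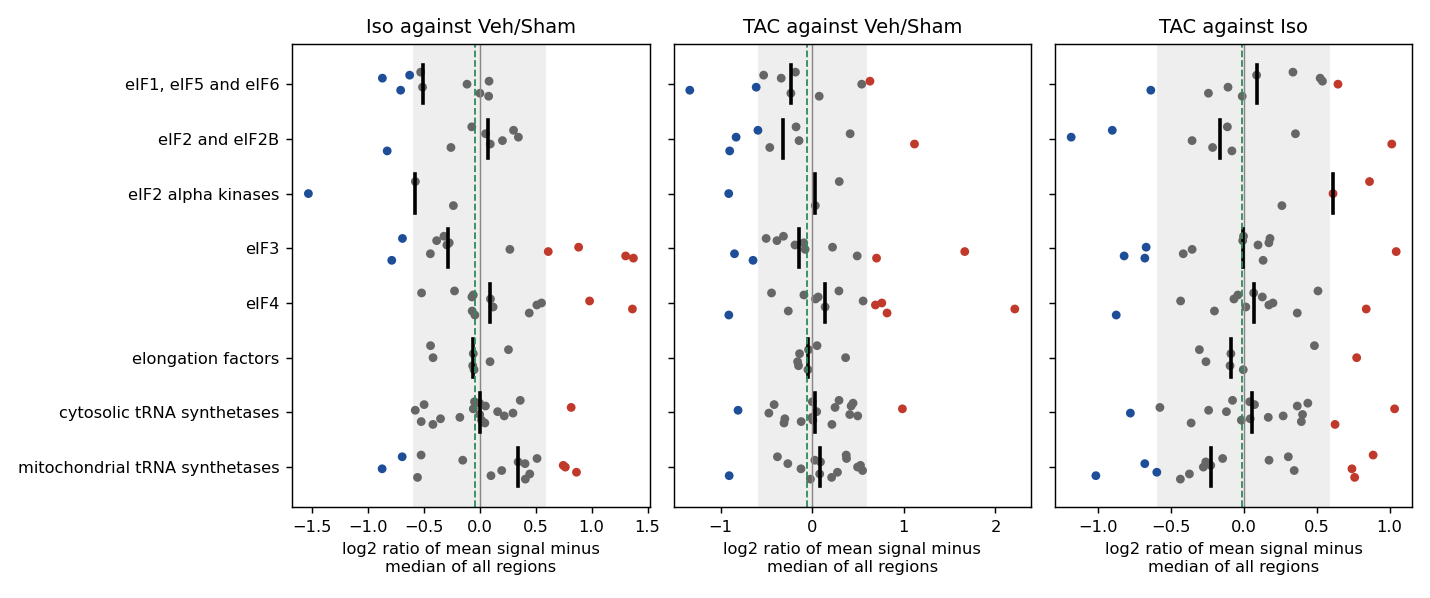
Log2 ratio of mean signal minus the median of all regions (x axis) for each gene by role in the 3 comparisons; red and blue points lie at least 1.5-fold above and below, the grey band holds the rest, black bars are medians over genes and the green dashed line is the median of all genes. Between 62 and 66 of the 85 genes lie in the band in each comparison, and Eif4g1 is the point farthest right for TAC to Veh/Sham (2.21).

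Among the genes grouped by an Eif1, Eif5 or Eif6 symbol, whatever their role, Eif1ad, Eif1a and Eif5a2 were lower in Iso. Of the 9 genes of the eIF1, eIF5 and eIF6 group, 0 were higher and 3 lower in Iso to Veh/Sham, against 12.3% and 13.2% of all genes. The relative median was -0.51, and its interval over genes of -0.71 to 0.08 holds the -0.04 of all genes. The count of 3 was 1 with a pseudocount of 5 or with calls in both libraries, and 0 without recentring or with a 2-fold rule. Eif1ad, which encodes an eIF1A-domain protein and shares its region with Banf1, read 24.5, 16.1 and 29.2. Its Iso value was the lowest of the 3, with peak depths of 45 and 26 overlapping fragments (Iso to Veh/Sham peak ratio 0.58, exact 95% counting interval 0.34 to 0.96, counting error only). Eif1a, a factor of start codon scanning, read 13.2, 10.3 and 13.8 (relative Iso log2 ratio -0.63). Eif5a2, a paralogue of the hypusine-bearing factor eIF5A, read 16.3, 12.0 and 9.25. It was the lowest of all 85 genes in TAC to Veh/Sham (relative log2 ratio -1.34) and also lower in Iso (-0.71), though its peak depths of 20, 15 and 14 gave a TAC to Veh/Sham interval of 0.33 to 1.46. Eif5a itself read 14.6, 12.5 and 14.3, with relative log2 ratios of -0.51 in Iso and -0.61 in TAC.

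Eif5b, the GTPase that joins the large subunit, had the second highest region (25.9, 32.1 and 33.4 in Veh/Sham, Iso and TAC; chromosome 1, 37996879 to 37998290 in mm10 as the table gives it). Eif1 read 21.2, 18 and 28.4 and Eif6, the factor that keeps the subunits apart, 8.12, 10.8 and 13.4. None of these 3 genes passed 1.5-fold in a comparison. Eif5, the GTPase activator of eIF2, read 11.3, 13.0 and 25.8 and was higher in TAC to Iso (relative log2 ratio 0.65). Eif1b was higher in TAC to Veh/Sham through a region 243 bp inside the gene (5.19, 7.06 and 13.4; 0.63), while its other region, at -222 bp, read 11.3, 4.71 and 7.71 (-1.08).

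The eIF2 complex and its exchange factor eIF2B, the step that stress kinases block, had members on both sides. The 8 genes were grouped by symbol and include Eif2a, which encodes a subunit of neither complex. Of the 8, 1 was higher and 3 lower in TAC to Veh/Sham, against 12.6% and 14.7% of all genes. The relative median was -0.32 (interval over genes -0.90 to 1.12). In Iso to Veh/Sham 0 were higher and 1 lower, against 12.3% and 13.2%, with a median of 0.07 (-0.83 to 0.34). The 3 lower in TAC were 0 without recentring, with a 2-fold rule or with calls in both libraries, and 2 with a pseudocount of 5. Eif2s2, the beta subunit (chromosome 2, 154892306 to 154893263), read 27.6, 28.5 and 30.2, and Eif2b4, the delta subunit of eIF2B (chromosome 5, 31192507 to 31193937), 22.2, 31.8 and 30.5. Both had calls in all 3 libraries. Eif2s3x, the X-linked gamma subunit, read 10.6, 7.07 and 8.36 and was lower in Iso (relative log2 ratio -0.83) and in TAC (-0.90). The intervals of its peak ratios to Veh/Sham were 0.27 to 1.46 in Iso and 0.34 to 1.67 in TAC. They hold the 1.27 and 1.43 over all regions. Eif2b1, the alpha subunit of eIF2B, read 11.6, 18.2 and 11.6, so it was lower in TAC than in Iso (-0.90) and against Veh/Sham (-0.59, at the edge of the rule). Peak depths at Eif2b1 were 18, 23 and 18. The gamma subunit gene Eif2b3 read 8.14, 13.3 and 6.71 in a region 22101 bp inside the gene (TAC to Iso -1.18). The catalytic subunit gene Eif2b5 read 3.57, 5 and 13.9 and was higher in TAC (1.12), but its region lies 18581 bp from its start, by Dvl3.

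Eif2ak3, which encodes PERK, the kinase that answers stress of the endoplasmic reticulum, had the lowest Iso ratio of the 85 genes. It read 9.44, 3.44 and 7.33, 880 bp upstream of its start (chromosome 6, 70843506 to 70843788). The relative log2 ratio was -1.53 in Iso and -0.91 in TAC, and the authors called it in Veh/Sham alone. Peak depths were 11, 6 and 9, and the Iso to Veh/Sham interval of 0.17 to 1.61 holds 1.27, the Iso to Veh/Sham ratio when the peak depths of all regions are added up. Eif2ak4, the amino acid sensor GCN2, read 7.95, 8.35 and 12.8 and passed 1.5-fold in no comparison. The region of Eif2ak1, the haem-regulated kinase HRI, lay 38246 bp from its start at Aimp2 and Pms2 and read 9.50, 7.67 and 18.3.

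Among subunits of eIF3, the largest initiation factor, Eif3l, Eif3k, Eif3f and Eif3h were higher and Eif3m and Eif3b lower in Iso. This is 4 and 2 of 12 subunit genes with a region (33.3% and 16.7%), against 12.3% and 13.2% of all genes, and the relative median was -0.28 (interval over genes -0.44 to 0.88). Eif3l read 4.38, 16.1 and 12.1, Eif3k 6.86, 22.9 and 15.6, and Eif3f 7.67, 18.7 and 14.2. In all 3 genes Iso was the highest library, and the authors called the region in Iso alone. Eif3k and Eif3l encode PCI-domain subunits and Eif3f an MPN-domain subunit. The relative log2 ratios were 1.37, 1.30 and 0.88, and the intervals of the Iso to Veh/Sham peak ratios were 1.22 to 9.69, 1.32 to 6.46 and 1.23 to 5.67, of which 1.32 alone lies above the ratio of 1.27 over all regions. The same 3 genes were lower in TAC than in Iso (-0.68, -0.82 and -0.67).

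Eif3h, the other MPN-domain subunit, was highest in TAC. It read 3.54, 7.54 and 20.6, with peak depths of 6, 10 and 28 (TAC to Veh/Sham peak ratio 4.67, interval 1.90 to 13.8; 1.43 over all regions). Its relative log2 ratio was 1.66 in TAC and 0.61 in Iso, and it was called in TAC alone. Eif3m read 10.1, 6.91 and 9.64 and was lower in Iso (-0.79) and in TAC (-0.65). Its peak depths were 14, 8 and 14. The intervals against Veh/Sham, 0.21 to 1.46 in Iso and 0.44 to 2.26 in TAC, hold the ratios over all regions. Eif3b read 11.5, 8.53 and 12.2 and was lower in Iso (-0.69), with peak depths of 22 and 23. Eif3j1, a loosely held subunit, was lower in TAC (14.3, 12.9 and 11.8; -0.85), but the region nearest its start read 8.14, 7.71 and 18.1 (0.48). Eif3a, Eif3c, Eif3d, Eif3e and Eif3g stayed within 1.5-fold in all 3 comparisons. With the region nearest the start site the same 4 eIF3 genes were higher in Iso, but their chosen region is already the nearest. That setting could not change their values. The count was 3 with peak depth or with a pseudocount of 5, 2 with a 2-fold rule, and 0 of 4 with calls demanded in both libraries.

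**Figure D4:**
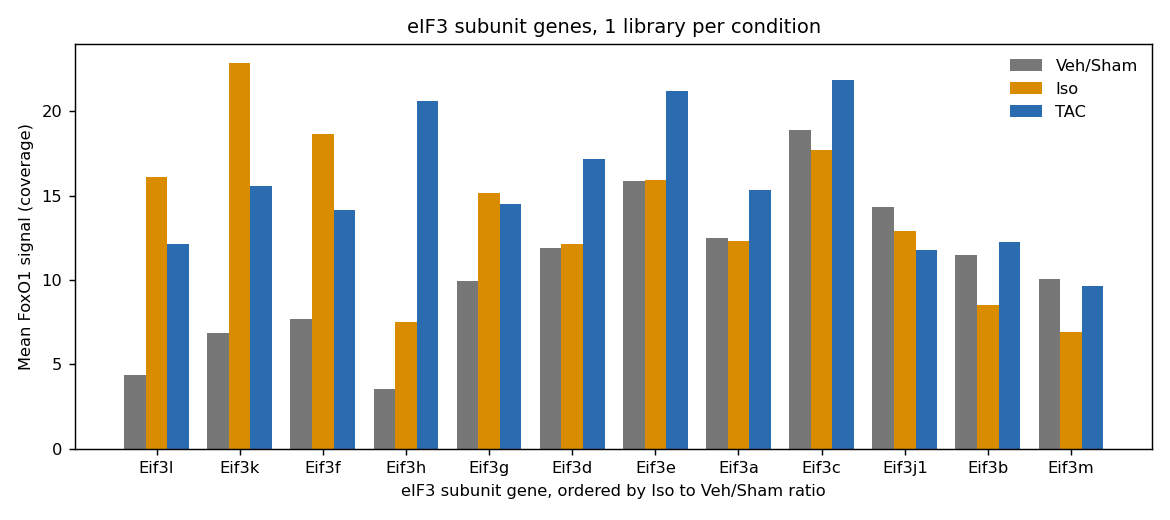
Mean FoxO1 signal (coverage) at the 12 eIF3 subunit genes in each library, 1 bar per library, ordered by the Iso to Veh/Sham ratio. Iso is the highest bar at Eif3l, Eif3k, Eif3f and Eif3g, and TAC at Eif3h (20.6).

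The eIF4 genes were grouped by symbol, and not all of them encode factors that bind the cap or unwind the mRNA. Among them Eif4g1, Eif4g3, Eif4e2 and Eif4ebp2 were higher and Eif4h lower in TAC. This is 4 and 1 of 13 (30.8% and 7.69%), against 12.6% and 14.7% of all genes. The relative median of 0.14 had an interval over genes of -0.26 to 0.76, which holds the -0.05 of all genes. The count of 4 was 9 without recentring, 2 with the region nearest the start, 1 with the mean over a gene's regions or a 2-fold rule, and 0 with calls in both libraries. For Iso to Veh/Sham, 2 were higher and 0 lower, against 12.3% and 13.2% of all genes, Eif4g1 and the oocyte eIF4E relative Eif4e1b (5.3, 14.3 and 12.9; 0.98), whose region lies 5320 bp from its start by Tspan17. Eif4e2, an eIF4E relative known as a repressor, read 9.17, 17.3 and 24.8 (0.76), and Eif4g3, a paralogue of the scaffold eIF4G1, 8.73, 15.3 and 24.7 (0.82). TAC was the highest library in both, and the TAC to Veh/Sham intervals of their peak ratios were 1.30 to 5.26 and 1.34 to 5.69; each includes the all-region ratio of 1.43. Eif4ebp2, an inhibitor of eIF4E, was higher in TAC in the region 425 bp inside the gene (7.64, 14.1 and 19.9; 0.69) and lower in the one at -119 bp (9.50, 15.9 and 7.86; -0.83). Eif4h, a helper of the helicase eIF4A, was lower in TAC in a region 5452 bp upstream (14.5, 17.5 and 11.4; -0.91) and at its start (8.55, 7 and 6.42; -0.95). Eif4e read 13.7, 18.3 and 21.6 and stood near the median of all regions (relative log2 ratios of 0.10 in Iso and 0.03 in TAC), and Eif4a1, the helicase, read 15.5, 16.4 and 29.3 (0.29 in TAC), in a region 9562 bp from its start that 6 other genes share, among them the leukocyte marker Cd68. The region at the Eif4a1 start read 17, 16.1 and 27.8 (0.09).

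Eif4g1 depended on the region taken. Its strongest region, 23392 bp from the start at Fam131a and Clcn2, read 2.5, 10.1 and 23.3 and gave the highest TAC to Veh/Sham ratio of the 85 genes (relative log2 2.21; peak depths 4 and 30, interval 2.64 to 29.3). The region at the gene's own start (chromosome 16, 20672599 to 20672940), which covers the Eif4g1 promoter printed above, read 12, 9 and 10.2, so it was lower in Iso (-0.68) and in TAC (-0.80). Of the 85 genes, 21 had their strongest region more than 1000 bp from their start, and 13 of these had another region within 1000 bp of it. Kars stood at 0.05 in TAC in its strongest region and -1.04 at its start, Eif3g at -0.08 and -0.86, and Qars at 0.00 and 0.91.

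**Figure D5:**
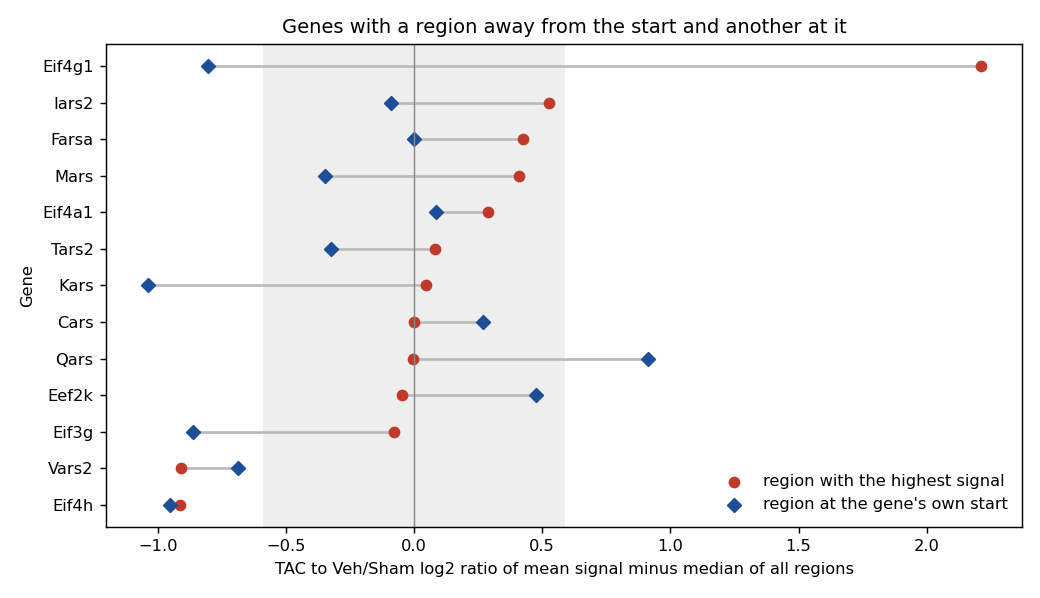
TAC to Veh/Sham log2 ratio minus the median of all regions (x axis) for the 13 genes whose strongest region (red circle) lies over 1000 bp from their start and that have another at the start (blue diamond); the grey band is 1.5-fold. Eif4g1 moves from 2.21 to -0.80.

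All 7 genes with an Eef1 or Eef2 symbol stayed within 1.5-fold in Iso and in TAC against Veh/Sham. So did 74.5% and 72.8% of all genes. The 7 include Eef2k and Eef1e1, which do not encode elongation factors themselves. The median signal of all 7 over the 3 libraries was 19.4, against 13.6 over all genes. Eef2, the translocase, read 18, 21.4 and 24.8, Eef1b2, a subunit of the eEF1A exchange complex, 15.4, 23.0 and 22.9, and Eef1g 16, 21.3 and 21.9. Eef1a1, which delivers tRNAs, read 16.6, 15 and 26.5 in its strongest region and 8.58, 24.8 and 23.7 in another at -346 bp, where the relative log2 ratio was 1.13 in Iso and 0.78 in TAC. Eef2k, the kinase that blocks eEF2, read 11.8, 14.2 and 17.6. Eef1e1, also known as the synthetase complex subunit AIMP3, read 10.8, 9.87 and 21.8 and was higher in TAC to Iso (0.77).

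Of 18 cytosolic tRNA synthetase genes, 1 was higher and 0 lower in Iso to Veh/Sham, against 12.3% and 13.2% of all genes. In TAC to Veh/Sham 1 was higher and 1 lower, against 12.6% and 14.7%. Farsb, the beta subunit of phenylalanyl-tRNA synthetase, read 9.12, 20.9 and 17.1 and was higher in Iso (0.82), with peak depths of 14 and 35 (interval 1.31 to 5.03). It was called in all 3 libraries, and its partner subunit gene Farsa read 11, 17.6 and 17 at its start. Lars, leucyl-tRNA synthetase, had the highest region of the 85 (34.3, 52.4 and 37.2), 128 bp upstream of its start and outside a CpG island. It was lower in TAC than in Iso (-0.78; peak depths 109 and 74, interval 0.50 to 0.92). Iars read 11.3, 9.15 and 9.54 (-0.81 in TAC), with a peak depth of 14 in each library. The region of Hars, 23056 bp from its start, read 4.50, 5.50 and 15.3 (0.98). Yars read 11.3, 10.3 and 20.3 and was higher in TAC to Iso (0.63). Aars and Tars, whose promoters with CARE letters are printed above, read 8.43, 13.9 and 16.3, and 10.8, 13.7 and 16.8; neither passed 1.5-fold. Eprs, the fused glutamyl and prolyl enzyme, read 11.7, 10.1 and 13.3.

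Of 15 mitochondrial tRNA synthetase genes, 3 were higher and 2 lower in Iso to Veh/Sham (20% and 13.3%), against 12.3% and 13.2% of all genes. The relative median was 0.34, and its interval over genes of -0.52 to 0.51 holds the -0.04 of all genes. In TAC to Veh/Sham 0 were higher and 1 lower (all genes 12.6% and 14.7%), with a median of 0.09, and in TAC to Iso 3 were higher and 3 lower (all genes 12.3% and 13.5%), with a median of -0.23. The genes higher in Iso were Pars2 (prolyl; 7.88, 18.9 and 15.1; 0.86), Lars2 (leucyl; 6.80, 15.3 and 15.5; 0.76) and Iars2 (isoleucyl; 4.71, 10.8 and 11.4; 0.75). Lars2 and Iars2 had calls in no library, and the region at the start of Iars2 read 6.08, 2.46 and 9 (-1.33 in Iso). Mars2 (methionyl) read 13.4, 8.67 and 18.8 and was lower in Iso (-0.87), as was Cars2, which read 21.0, 15.8 and 24.4 (-0.69). Their intervals of 0.39 to 1.62 and 0.58 to 1.63 also hold 1.27, and the Cars2 peak depths were 33 in Veh/Sham and 32 in Iso. Aars2 (alanyl), Wars2 (tryptophanyl) and Mars2 were higher in TAC to Iso, with relative log2 ratios of 0.89, 0.76 and 0.74. Aars2 read 9.86, 8.29 and 20.1, and Wars2 12.4, 10.2 and 22.3. The region of Vars2 (valyl), 6162 bp upstream and shared with Ddr1 and Gtf2h4, read 22.5, 30 and 17.8; its TAC to Iso peak ratio was 0.43 (interval 0.27 to 0.65; 1.12 over all regions). At the Vars2 start the values were 11.6, 13 and 10.8, with relative log2 ratios of -0.69 for TAC to Veh/Sham and -0.55 for TAC to Iso.

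Other genes of translation control were taken from a list that also holds Eif4ebp2. Of 44 listed (among those without a region were Gfm1, Asns and Mknk1), 37 had a region. Of these, 6 were higher and 6 lower in Iso to Veh/Sham (16.2% each; all genes 12.3% and 13.2%), 5 higher and 7 lower in TAC to Veh/Sham (13.5% and 18.9%; all genes 12.6% and 14.7%), and 5 higher and 6 lower in TAC to Iso (13.5% and 16.2%; all genes 12.3% and 13.5%). Rptor, the mTORC1 subunit raptor, read 5.18, 16.2 and 15.1 (1.18 in Iso and 0.79 in TAC), and Rps6kb1, the S6 kinase, 7.62, 18 and 19.0 (0.84 and 0.63). Atf4 read 7.14, 20.6 and 15.9 in a region 9138 bp from its start (1.11 in Iso). Mtfmt, which formylates the mitochondrial initiator tRNA, read 11, 3.71 and 4.29 (-1.65 and -1.77), and Pabpc1, the poly(A)-binding protein, 17.7, 11.2 and 13.1 (-0.91 and -1.00). Eif4ebp1, the eIF4E inhibitor set apart by the rule, read 13.9, 11.1 and 7.43 (-0.59 and -1.40). Tufm, the mitochondrial elongation factor Tu, read 16.9, 24.9 and 14.8 and was lower in TAC to Iso (-1.00).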

How the data were processed

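FoxO1 ChIP-seq of mouse heart was analysed in 3 libraries, 1 per condition; the pooled input library was not used here. Per the submitters' processing notes, BWA, SICER and mm10 were used, without roles or versions; the labels name a Drosophila spike-in. The authors deposited regions merged over libraries with 2 coverage signals per library, the mean and the peak (whole numbers, read as depths of overlapping fragments), and whether an interval was called. Columns of 2 libraries that match no sample (6 columns) were not used. Genes, distances and CpG islands are the table's; its coordinates are printed as given.

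The members and lists were chosen with earlier results of these data known. Log2 ratios of mean signal used a pseudocount of 1, which understates ratios at low signal, and were recentred on the median of all 16126 regions; 1.5-fold was a rule of size, across all 11718 genes. Single peak ratios have exact Clopper-Pearson 95% intervals, which cover counting error only, and assume that peak depths are unscaled fragment numbers; a peak is itself a maximum over its region. Depth per library is unknown; peak depths summed over regions were 245382 (Veh/Sham), 312197 (Iso) and 351237 (TAC). Genes named were the 8 highest signals, the 4 highest and lowest ratios per comparison, the extremes of each role group, and a fixed set of key factors; others were named after their values were seen. Promoters and symbols are RefSeq's (GRCm38.p6, the mm10 assembly): 84 of 85 symbols matched, and 66 had a promoter entry. The recentred fold rule was tried on simulated peak depths with planted changes well above 1.5-fold, for TAC to Veh/Sham only. The simulation did not cover mean signals or planted changes near 1.5-fold, so it does not bear on the counts given here. The motif search and the intervals were not tested in this way. The work used Python 3.11.15 with scipy 1.17.1, pandas 2.3.3, matplotlib 3.10.9 and numpy 2.4.6.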

Additional observations from a re-analysis of the deposited data

How the results depend on the processing

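With 1 library per condition no result could be checked by leaving out a replicate. No paired analysis was possible because each condition has 1 library. Counts of genes higher and lower, 10 and 9 for Iso to Veh/Sham, 9 and 11 for TAC to Veh/Sham and 12 and 11 for TAC to Iso, came to 22 and 1, 43 and 1, and 25 and 3 without recentring (medians 0.26, 0.59 and 0.29). Without recentring the shares of all genes were 25% and 5%, 46% and 3%, and 27% and 6%. The counts were 3 and 1, 3 and 1, and 3 and 2 with a 2-fold rule. Under that rule about 4% of all genes were higher and 4% lower against Veh/Sham, in Iso and in TAC. With calls in both libraries the counts were 1 and 2 of 41 genes, 0 and 1 of 47, and 2 and 3 of 38. All genes with such calls stood at 4% and 4%, 3% and 7%, and 2% and 8%. The Iso count of 10 was 6 with a call in at least 1 library, the 9 was 4 and the TAC to Iso 11 was 6 with a pseudocount of 5, and that 11 was 7 with regions within 1000 bp of their own start, a setting chosen after seeing the data. The 6 were of 68 genes with such a call, and 9.9% of all genes with one were higher in Iso. With a pseudocount of 5, 6.7% of all genes were lower in Iso. The 7 were of 64 genes, and 10.8% of all genes at their own start were lower in TAC to Iso. What these changes follow from was not tested. Peak depth, a pseudocount of 0.1, other choices of a gene's region and the signal filter kept these counts within 1.5 times and the medians inside their intervals. Counting each region once changed nothing, since no 2 genes share one. In the region nearest the start, signs reversed for Eif4g1 (-0.68 in Iso and -0.80 in TAC against Veh/Sham, -0.13 for TAC to Iso), Iars2 (-1.33 in Iso), and, in TAC to Veh/Sham, Eif1b (-1.08), Eif3j1 (0.48) and Eif4ebp2 (-0.83). With a gene's regions averaged they reversed for Iars2 (-0.047), Eif1b (-0.27) and Eif4ebp2 (-0.042). The promoter share was 72.9% at 500 bp and 77.6% at 5000 bp, and the YY1 share was 3.03% (genes with a region 2.35%) with bases before the start only. Low peak depths, from 4 to 14 in Veh/Sham at every gene higher than Veh/Sham, limit the single ratios of those genes.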
